A study of Homo sapiens with 3 samples.

Results

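The genes described here are the writers, erasers and readers of N6-methyladenosine (m6A) on RNA, 10 of the 13247 protein-coding genes counted in the RNA pulled down with DDX49, an RNA helicase of the DEAD-box family that carried a Flag tag. They were chosen by gene name as the writers METTL3, METTL14, WTAP and VIRMA, the erasers FTO and ALKBH5, and the readers YTHDF1, YTHDF2, YTHDF3 and YTHDC1. All 10 were found, 9 under these names and VIRMA under its older symbol KIAA1429. The 3 libraries form 1 group: HHL5 cells, given by the labels as a wild-type embryonic liver line, were transfected with Flag-DDX49 and treated for 24 h with 1.5 mM OA/PA (2/1). OA and PA are the usual short forms of oleic and palmitic acid, which load liver cells with fat. RNA bound to the tagged protein was recovered after ultraviolet cross-linking with an antibody against the tag and sequenced (RNA immunoprecipitation sequencing, RIP-seq). No input, mock pull-down or untreated sample was analysed here, so a gene's level joins the abundance of its mRNA in the cells with the recovery of that mRNA, and no conditions could be compared.

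m6A is a methyl mark that the writers place on adenosines of mRNA in the nucleus. METTL3 carries the catalytic site, METTL14 pairs with it and helps to hold the RNA, and WTAP and VIRMA belong to the larger complex that guides the pair. FTO and ALKBH5 can remove the methyl group. Readers with a YTH domain bind the marked base, YTHDC1 mainly in the nucleus and the YTHDF proteins in the cytoplasm, where YTHDF2 is best known for the decay of marked mRNAs.

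The libraries held 2023133, 1461858 and 1096586 counts in replicates 1, 2 and 3. DDX49 itself, whose counts can include RNA of the transfected construct, took 3.53%, 4.15% and 5.09% of them. Levels are given as CPM, counts divided by the library total and scaled to 1000000, and means carry the SD over the 3 libraries. Intervals are 95% and cover counting error only, with reads taken as independent. Whether reads carried molecular identifiers is not known here, and repeated reads of the same molecule would make the intervals too narrow. The labels do not say whether the libraries came from separate cultures, and their spread may therefore be technical. Of 12 hepatocyte markers 5 were in the table: CPS1 had 1726 ± 45.9 CPM, CEBPA 1.72 ± 0.317, APOA2 and TF were below 1 CPM, and FGB had 0 counts in each library. Of the 6 biliary and epithelial markers, KRT8, KRT7 and KRT18 were present at 2608 to 6409 CPM, SOX9 had 4.43 ± 2.65 CPM, and KRT19 had 0 counts. EPCAM was not in the table. Of the 5 mesenchymal markers VIM had 1104 ± 52.5 CPM, COL3A1, PDGFRB and ACTA2 had 42.5, 31.1 and 5.77 CPM, and COL1A1 had 0 counts.

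The 10 transcripts together took the same small part of every library. Their 1679, 1191 and 907 counts gave 829.9, 814.7 and 827.1 CPM, or 823.9 ± 8.08 CPM (SD, n = 3). The spread between libraries was 0.981% of that mean, below the counting errors of 2.44%, 2.90% and 3.32%. None of the 10 had a mean below 1 CPM, against 18.4% of all genes in the table, and 9 of them reached the summed count of 30 needed for the test between libraries. METTL14 did not. The median member had 62.5 CPM, beside 26.96 CPM for the 10815 genes of at least 1 CPM, and the family median lay 1.24 ± 0.105 log2 units above that of those genes on the log2(CPM + 1) scale. That distance depends on the genes it is set against: it was 0.45 against genes of at least 10 CPM and 1.88 with no filter. CPM is not corrected for transcript length, and lengths were not used here, so it does not rank the genes by number of mRNA molecules.

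**Figure D1:**
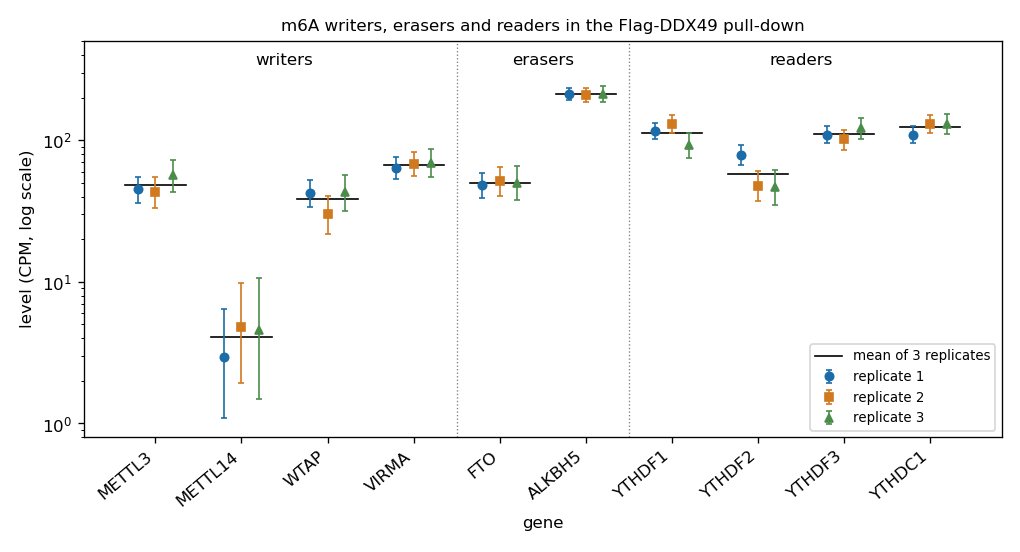
Level of each writer, eraser and reader in the 3 libraries, in CPM on a log scale. Points are libraries with exact 95% Poisson intervals and horizontal lines are means over the 3 replicates. METTL14 lies at 2.97 to 4.79 CPM and the other 9 genes lie between 30.1 and 213 CPM.

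Among the writers, METTL14 stood close to the lowest level that these libraries can show, while its partner METTL3 was well measured. METTL3 (ENSG00000165819, chromosome 14 at 21498138 to 21511340, GRCh38, the assembly hg38) had 91, 63 and 62 counts, or 44.98, 43.1 and 56.5 CPM, with a mean of 48.2 ± 7.28 CPM. METTL14 (ENSG00000145388, chromosome 4 at 118685392 to 118715430) had 6, 7 and 5 counts, or 2.97, 4.79 and 4.56 CPM, with a mean of 4.105 ± 0.993 CPM. Its counting intervals were wide, at 1.09 to 6.46, 1.93 to 9.87 and 1.48 to 10.6 CPM, so a difference between libraries was not detectable at this depth. Each value exceeded the limit that 0 counts would allow in its library (3 counts, or 1.48, 2.05 and 2.74 CPM). METTL14 overlaps no other gene of the RefSeq annotation, and the span of METTL3 shares 1033 bases with the protein-coding gene TOX4.

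The ratio of METTL3 to METTL14 counts was 15.2, 9 and 12.4 in replicates 1, 2 and 3, a mean of 12.2 ± 3.09 (SD, n = 3). Its exact binomial intervals of 6.71 to 42.4, 4.12 to 23.3 and 5.04 to 39.5 overlapped, and each lay above 1. A ratio within a library does not depend on its total, but it still holds the difference in length between the transcripts. The start regions of both genes are printed because these genes encode the catalytic pair, whose counts lay far apart. They run from 250 bases before to 50 bases after the annotated start (RefSeq, GRCh38.p14), for METTL3 at chr14:21511291-21511590 on the minus strand and for METTL14 at chr4:118685142-118685441 on the plus strand, with CCGGAA, the core that factors of the ETS family bind, and its reverse complement TTCCGG in capitals.
METTL3: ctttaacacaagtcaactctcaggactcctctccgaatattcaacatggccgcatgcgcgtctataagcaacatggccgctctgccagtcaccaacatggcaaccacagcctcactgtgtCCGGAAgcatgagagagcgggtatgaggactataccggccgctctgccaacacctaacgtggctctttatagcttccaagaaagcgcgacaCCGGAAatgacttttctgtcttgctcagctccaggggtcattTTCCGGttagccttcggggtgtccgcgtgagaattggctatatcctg
METTL14: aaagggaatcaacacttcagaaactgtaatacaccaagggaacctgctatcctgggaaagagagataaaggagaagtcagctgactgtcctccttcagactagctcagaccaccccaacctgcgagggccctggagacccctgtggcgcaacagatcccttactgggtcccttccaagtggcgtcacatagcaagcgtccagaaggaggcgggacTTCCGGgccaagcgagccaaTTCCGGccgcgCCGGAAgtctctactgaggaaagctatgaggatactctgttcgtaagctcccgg
Both windows held the motif 3 times, counted on both strands with no overlapping matches. In METTL3 the matches began 130 and 39 bases before the start and at base 4 after it, and in METTL14 35, 15 and 4 bases before the start. The motif was chosen after these sequences were seen. It occurred at least 1 time in 17.2% of the 35116 windows of the RefSeq table, and how many held it 3 times was not counted. No window of the 6 other members listed there (WTAP, FTO, ALKBH5, YTHDF1, YTHDF2 and YTHDC1) held it, and at that share most windows lack it. The match is a description of the sequence, and promoter activity was not measured.

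The adaptor subunits were both present in every library. WTAP, which keeps the catalytic pair in nuclear speckles (ENSG00000146457, chromosome 6 at 159726693 to 159756319), had 86, 44 and 47 counts, or 42.5, 30.1 and 42.9 CPM, with a mean of 38.5 ± 7.27 CPM. Replicate 2 was the low one, and the other 2 were nearly equal. The whole span of WTAP lies within that annotated for SOD2, which had 53.6 ± 6.96 CPM, so reads of the 2 genes may not be fully separated. VIRMA, the scaffold that directs methylation towards the 3′ ends of mRNAs (ENSG00000164944, chromosome 8 at 94487689 to 94553469), had 129, 100 and 76 counts, or 63.8, 68.4 and 69.3 CPM, with a mean of 67.2 ± 2.98 CPM. Its libraries were the most alike of the writers, with a coefficient of variation of 4.43%. Per count of METTL3, WTAP gave 0.801 ± 0.129 counts and VIRMA 1.41 ± 0.181, and in both cases the intervals of the 3 libraries overlapped.

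The erasers were the most even members across libraries. ALKBH5, a nuclear demethylase (ENSG00000091542, chromosome 17 at 18183828 to 18209954), had 430, 303 and 234 counts, or 212.5, 207.3 and 213.4 CPM, with a mean of 211 ± 3.32 CPM. FTO, the first demethylase described for m6A and also a demethylase of m6Am beside the cap (ENSG00000140718, chromosome 16 at 53703963 to 54121941), had 98, 75 and 55 counts, or 48.4, 51.3 and 50.2 CPM, with a mean of 49.97 ± 1.44 CPM. Their coefficients of variation were 1.57% and 2.89%, beside a median of 16.7% over the 8633 genes tested. Those genes had a median level of 40.35 CPM, and low counts spread more by counting error, so the comparison is not matched for level. The counting intervals of FTO, 39.3 to 59.0, 40.35 to 64.3 and 37.8 to 65.3 CPM, were wider than the range of its values. The ratio of ALKBH5 to FTO counts was 4.39, 4.04 and 4.26, a mean of 4.23 ± 0.176, and its intervals of 3.52 to 5.52, 3.13 to 5.27 and 3.16 to 5.82 overlapped almost entirely. ALKBH5 alone gave 25.6% ± 0.179 of the family's counts.

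Of the readers, YTHDF2 was the one whose level differed between libraries. YTHDF2 (ENSG00000198492, chromosome 1 at 28736624 to 28769775) had 160, 70 and 51 counts, or 79.1, 47.9 and 46.5 CPM, with a mean of 57.8 ± 18.4 CPM. Replicate 1 was high, at 1.65 times replicate 2 and 1.7 times replicate 3, and its interval of 67.3 to 92.3 CPM did not overlap those of 37.3 to 60.5 and 34.6 to 61.2 CPM. The chi-square test of its counts against the library totals gave an adjusted p of 0.00204 (Benjamini-Hochberg over 8633 genes). It was the 1 member of 9 tested that passed at 0.05, while 19.6% of all tested genes passed and 8.93% passed with their highest level in replicate 1. A count of 1 of 9 does not stand out from these shares. Without replicate 1 no member passed this test (YTHDF2 adjusted p = 0.954), against 6.77% of genes, and 1 member, YTHDF1, had an unadjusted p below 0.05. Without replicate 2 or 3 YTHDF2 passed, while 16.6% and 5.8% of genes did, and over the 7 alternatives other than leaving out replicate 1 its adjusted p ran from 0.00231 to 0.0166. Replicate 1 was also the deepest library and the one with the smallest share of DDX49. With DDX49 left out of the totals, the chi-square test gave YTHDF2 an adjusted p of 0.00271. Any further part of depth or of the DDX49 share in the difference was not tested.

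**Figure D2:**
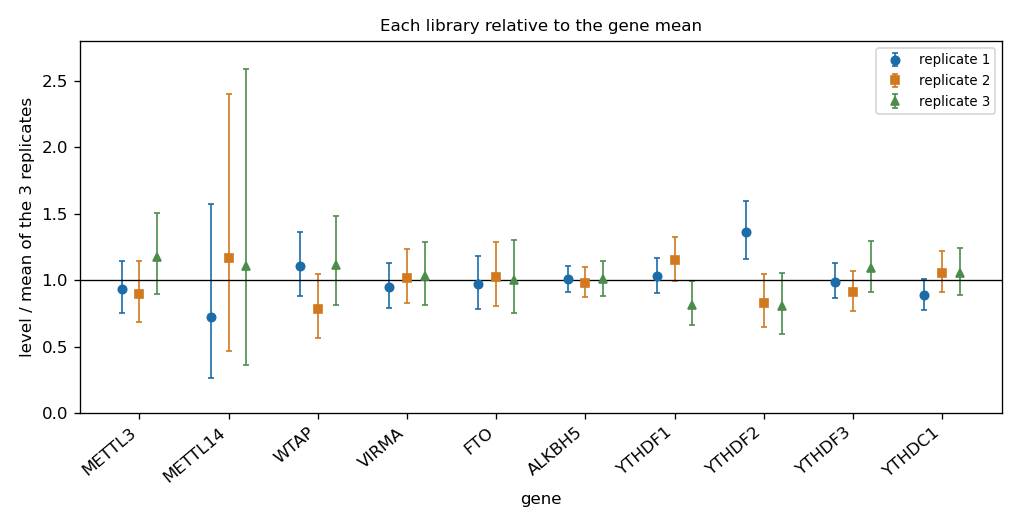
Level in each library divided by the gene's mean over the 3 replicates, with exact 95% Poisson intervals. YTHDF2 in replicate 1 lies above the line at 1 and clear of its other libraries, ALKBH5 and FTO lie close to the line, and the wide intervals of METTL14 come from 5 to 7 counts.

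YTHDF1, linked to translation of marked mRNAs (ENSG00000149658, chromosome 20 at 63195429 to 63216131), had 235, 190 and 101 counts, or 116, 130.0 and 92.1 CPM, with a mean of 113 ± 19.2 CPM. Replicate 3 was its low library, and the intervals of replicate 2 (112.1 to 149.8 CPM) and replicate 3 (75.0 to 111.9 CPM) did not overlap. The test gave an unadjusted p of 0.019 and did not pass after adjustment (adjusted p = 0.0789). YTHDF3, which is described as acting with the other YTHDF proteins (ENSG00000185728, chromosome 8 at 63168553 to 63212788), had 222, 148 and 133 counts, or 109.7, 101.2 and 121 CPM, with a mean of 110.8 ± 10.1 CPM. For YTHDF3 the 3 intervals overlapped. YTHDC1, the nuclear reader with roles in splicing and mRNA export (ENSG00000083896, chromosome 4 at 68310387 to 68350090), had 222, 191 and 143 counts, or 109.7, 130.7 and 130.4 CPM, with a mean of 124 ± 12.0 CPM. Replicate 1 was its low library, the reverse of YTHDF2, but its intervals of 95.8 to 125.2, 112.8 to 150.6 and 109.9 to 153.6 CPM overlapped. YTHDC1 did not pass the chi-square test (adjusted p = 0.277). Over the 8 members that did not pass, the adjusted p ran from 0.0789 to 0.959, and 6 of the 9 tested members had a coefficient of variation below the 16.7% of the median tested gene. Most tested members lay above the 40.35 CPM median of the tested genes, so that comparison is not matched for level.

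The counted ratios among the YTHDF readers varied between libraries, but these ratios were not tested. Their intervals are not adjusted for the number of ratios and library pairs looked at. The ratio of YTHDF2 to YTHDF1 counts was 0.681, 0.368 and 0.505 in replicates 1, 2 and 3, a mean of 0.518 ± 0.157, and the intervals of replicate 1 (0.553 to 0.836) and replicate 2 (0.276 to 0.487) did not overlap. The ratio of YTHDF3 to YTHDF1 was 0.945, 0.779 and 1.32, a mean of 1.01 ± 0.276, and the intervals of replicate 2 (0.624 to 0.971) and replicate 3 (1.01 to 1.72) did not overlap. The YTHDF genes are close paralogs, and the rule for counting reads that match several of them is not known here. The split among them is uncertain for that reason. By role, readers gave 49.97%, 50.3% and 47.2% of the family's counts, erasers 31.5%, 31.7% and 31.9%, and writers 18.6%, 18.0% and 20.95%. The Wilson intervals for readers, 47.6% to 52.4%, 47.5% to 53.1% and 43.96% to 50.4%, overlapped, as did those for writers and erasers.

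**Figure D3:**
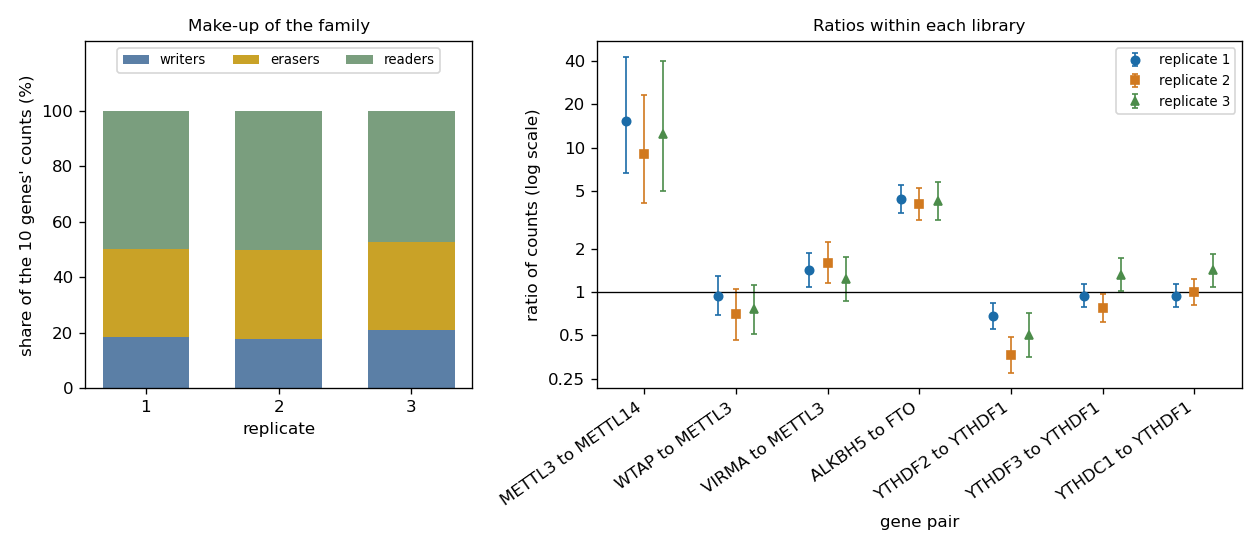
Left, share of the 10 genes' counts taken by writers, erasers and readers in each library, in percent. Right, ratios of counts between members within each library on a log scale with exact 95% binomial intervals. The 3 bars are nearly alike, ALKBH5 to FTO stays between 4.04 and 4.39, and YTHDF2 to YTHDF1 runs from 0.368 to 0.681.

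The genes with values most like those of METTL3 were ZRANB2, NPC2 and SLU7, by Euclidean distance of log2(CPM + 1) over the 3 libraries. The distances were 0.0497, 0.0607 and 0.0853 log2 units, and 468 genes lay within 0.5 units. ZRANB2 had 91, 65 and 61 counts, NPC2 95, 63 and 62, and SLU7 93, 66 and 64, beside the 91, 63 and 62 of METTL3. With 3 libraries of 1 group, likeness here says that the levels are close.

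The wider m6A pathway was covered by 30 further genes, each with a mean of at least 1 CPM and a median member of 52.1 CPM. Of the 26 with enough counts to be tested 8 passed the test between libraries, 6 with their highest level in replicate 1, 1 in replicate 2 and 1 in replicate 3. Of all tested genes 8.93%, 4% and 6.66% passed with their highest level in these libraries. None of the 4 other partners of the writer complex passed. RBM15B and RBM15, related proteins that bring the complex to its RNA targets, had 236 ± 9.57 and 81.8 ± 11 CPM. The span of RBM15B overlaps the protein-coding gene DCAF1. ZC3H13, which holds the complex in the nucleus, had 86.5 ± 7.09 CPM, and the ubiquitin ligase CBLL1 had 31.6 ± 5.28 CPM.

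Of 6 genes of other RNA methyltransferases 4 could be tested and 2 passed, against 19.6% of all tested genes, and they were low in different libraries. METTL5, which methylates 18S ribosomal RNA, had 13, 27 and 22 counts, or 6.43, 18.5 and 20.1 CPM, and was low in replicate 1 (adjusted p = 0.0118). Its partner TRMT112, which also serves other methyltransferases, had 230, 154 and 72 counts, or 114, 105 and 65.7 CPM, and was low in replicate 3 (adjusted p = 0.00342). The spans of both overlap other protein-coding genes, SSB for METTL5, and ESRRA and PRDX5 for TRMT112. PCIF1, which writes m6Am beside the cap, had 45.97, 48.6 and 50.2 CPM, with overlapping counting intervals, and did not pass. METTL16, which methylates U6 snRNA and the MAT2A transcript, had 3, 1 and 2 counts, and METTL4 5, 3 and 2, so neither level could be compared between libraries at this depth.

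Of 10 other RNA-binding proteins described as m6A readers 9 could be tested and 3 passed, while 19.6% of all tested genes did: HNRNPC (280, 254.5 and 214 CPM, adjusted p = 0.0209), PRRC2A (888, 784 and 779 CPM, adjusted p = 0.00652) and ELAVL1 (128.5, 99.9 and 83.9 CPM, adjusted p = 0.00862). All 3 were highest in replicate 1, where 771 of the 1691 genes that passed also had their highest level. HNRNPA2B1, a nuclear ribonucleoprotein, had 874.5 ± 39.1 CPM and did not pass. The insulin-like growth factor 2 mRNA-binding proteins IGF2BP1, IGF2BP2 and IGF2BP3, which stabilise target mRNAs and are best known from fetal tissue and tumours, had 101.3 ± 14.9, 51.3 ± 5.36 and 56.1 ± 7.93 CPM and did not pass. The span of IGF2BP3 overlaps the protein-coding gene MALSU1. YTHDC2, the remaining YTH-domain protein, had 28.6 ± 2.21 CPM in 3 nearly equal libraries. FMR1, with 3, 3 and 6 counts, stood near the limit of detection, as METTL14 did.

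Of 7 partners of the YTH readers 6 could be tested and 1 passed, close to the 19.6% of all tested genes. CNOT1, the scaffold of the deadenylase complex that YTHDF2 recruits, had 515, 372 and 204 counts, or 254.6, 254.5 and 186 CPM, and was low in replicate 3 (adjusted p = 0.00441). Its span overlaps the protein-coding gene SETD6. POP1, of the endonuclease that cleaves some YTHDF2-bound RNAs, had 25.2, 13.7 and 12.8 CPM and did not pass (adjusted p = 0.0601), and RIDA, the adaptor between YTHDF2 and that endonuclease, had 7, 2 and 2 counts. UPF1, a helicase of mRNA decay, had 108 ± 7.36 CPM. The splicing factors SRSF3 and SRSF10 and the export receptor NXF1, which act with or after YTHDC1, had 78.4 ± 8.75, 50.8 ± 10.8 and 44.4 ± 7.96 CPM, and none of these 4 passed.

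Of the 3 genes that supply and clear the methyl donor S-adenosylmethionine, all tested, 2 passed, against 19.6% of all tested genes. MAT2A, the form of the synthetase that predominates outside the adult liver, had 113, 96 and 41 counts, or 55.9, 65.7 and 37.4 CPM (adjusted p = 0.0495, just under the threshold), and its span overlaps GGCX. AHCY, which removes the by-product S-adenosylhomocysteine, had 320, 199 and 117 counts, or 158, 136 and 107 CPM (adjusted p = 0.0117), and its span overlaps ASIP. Both were lowest in replicate 3. The regulatory subunit MAT2B had 34.2 ± 4.11 CPM and did not pass.

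**Figure D4:**
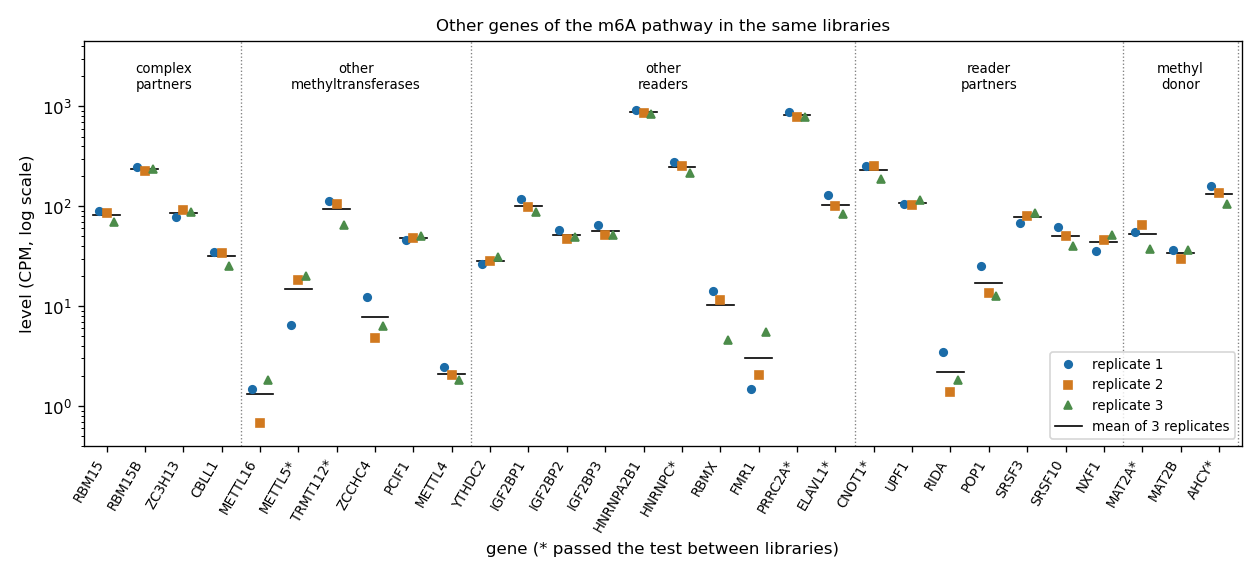
Levels of 30 further genes of the m6A pathway in the 3 libraries, in CPM on a log scale, by class, with lines at the means. An asterisk marks the 8 genes that passed the test between libraries; METTL16, METTL4, FMR1 and RIDA lie at the bottom with 1 to 7 counts per library.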

How the data were processed

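Raw counts for each gene were deposited, per the file headers, for 3 RIP-seq libraries of 1 group, with CASAVA 1.4 and build hg38 named in the submitters' processing notes. Which aligner and counter were used, and how strand and shared reads were handled, was not given in the sources used here. A further 3 per-sample columns, headed as normalised, were not used. Counts were scaled to CPM by each column total, and 1 CPM was added before taking log2. VIRMA was matched by its gene identifier, and positions came from the RefSeq table of GRCh38.p14.

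Each gene with a summed count of at least 30 (8633 genes) was tested between libraries with a chi-square test of its 3 counts against the totals, with Benjamini-Hochberg adjustment at 0.05. It compares libraries of 1 group, not conditions. The test allows for counting error only and takes reads as independent, so its p-values may be too small. A count of 0 was taken to allow up to 3 counts. Members and lists were chosen with earlier results of these data known. The text names all 10 members, DDX49, the 3 genes nearest METTL3 and, from each class of further genes, the 2 highest, those below 1 CPM and those that passed; other genes of these lists were named after their values were seen. Levels per coding length, planned where lengths were given, were not formed. The test was tried on simulated counts. Python 3.11.15, numpy 2.4.6, scipy 1.17.1, pandas 2.3.3, matplotlib 3.10.9, R 4.3.3, edgeR 4.0.16 (TMM factors) and DESeq2 1.42.0 (size factors) were used, the last 2 for alternatives.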

Additional observations from a re-analysis of the deposited data

How the results depend on the processing

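Of 176 comparisons of a value with an alternative, 167 were counted as unchanged. Values with a call had to keep it, and values with an SD between libraries had to move by less than it. Leaving out 1 of 3 libraries cannot move a mean over libraries by that SD. Levels, ratios and shares without 1 replicate were therefore bound to count as unchanged. Counts of genes have no such SD, and 1322 genes in place of 1691 was also counted as unchanged. Without replicate 3 the mean ratio of YTHDF3 to YTHDF1 fell from 1.01 to 0.862, so it crossed 1. The family's median distance was 0.45 log2 units against genes of at least 10 CPM and 1.88 with no filter, in place of 1.24. Leaving out 1 replicate, 474 to 1322 genes differed between libraries in place of 1691, with 505 without replicate 1, 1322 without replicate 2 and 474 without replicate 3, and 0 to 1 members. The 0 came without replicate 1, where YTHDF2 had an adjusted p of 0.954; fewer libraries also leave fewer counts to test. Under the other 7 settings YTHDF2 passed, with adjusted p from 0.00231 to 0.0166. Leaving DDX49 out of the totals raised VIRMA to 70.2, FTO to 52.2 and ALKBH5 to 221 CPM, as it raises every gene of a library by 1 factor. DESeq2 size factors in the chi-square test were added after seeing the data. Levels per coding length were not run. No paired analysis was possible because the 3 libraries form 1 group. Depth limits METTL14, METTL16, METTL4, FMR1 and RIDA, each with 7 counts or fewer per library.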
